A study of Mus musculus with 9 samples.

Results

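A set of 46 genes that copy DNA, drive the cell cycle and carry out mitosis was followed in the colon of 9 mice, with 3 control mice, 3 DSS mice and 3 DSS + EA mice. The genes were listed by symbol, with earlier results of these data known, and all 46 were found among the 27719 genes of the count table. They fall into 6 roles, with 11 genes of the pre-replication complex and the replication fork, 4 of nucleotide supply, 7 cyclins, kinases and regulators of the entry into S phase, 8 mitotic cyclins, kinases and transcription factors, 9 of chromosomes, the spindle checkpoint and anaphase, and 7 of the spindle, its motors and cytokinesis. The mice were C57BL/6J, and their age was not given in the sources used here. Control mice drank distilled water. Mice of the DSS and DSS + EA groups drank 2.5% dextran sodium sulfate (DSS), which injures the colon epithelium, over 7 days. After the first 5 days of the model, the DSS + EA mice received electroacupuncture (EA), a weak current passed through needles. It was given at both ST36 acupoints on 5 days, each time for 30 minutes, with 2 Hz and 0.2 mA. Control and DSS mice were restrained for the same time without needles, so EA and needling cannot be told apart. Full-length cDNA of total colon RNA was amplified by PCR and read on an Oxford Nanopore instrument.

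A dividing cell licenses its origins of replication in G1, copies its DNA in S phase and separates its chromosomes in mitosis. E2F transcription factors, released when cyclin-dependent kinases phosphorylate the retinoblastoma protein, switch on the genes of replication, whereas the DREAM complex and FOXM1 act on the later genes of G2 and mitosis through a promoter element called CHR. In the colon most dividing cells lie in the lower crypt, from which the epithelium is renewed, and immune, stromal and endothelial cells can divide as well when the mucosa is inflamed.

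Between 2627695 and 4235576 reads per mouse were counted on genes, of which 3334 to 6878 fell on the 46 genes. The defining epithelial genes of the labelled tissue, the colon, were detected in every mouse. DSS mouse 1 stood apart from the other two DSS mice. Its epithelial marker genes summed to 9520 CPM (counts scaled to a common library size with the TMM method), against 3710 and 2130 CPM in DSS mice 2 and 3, 8960 to 9520 CPM in the control mice and 8380 to 8560 CPM in the DSS + EA mice. Its neutrophil markers summed to 2760 CPM, against 23900 and 29300 CPM in DSS mice 2 and 3, 11.5 to 12.9 CPM in the control mice and 639 to 1050 CPM in the DSS + EA mice. In DSS + EA mice 2 and 3, genes of the pancreatic acinar cell reached 15000 and 7800 CPM, against 373 CPM in DSS + EA mouse 1. DSS mouse 2 held a larger share of long transcripts than the other libraries, with values given beside Mki67. In whole tissue, fewer dividing cells and less RNA per dividing cell cannot be told apart.

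Compared with the control group, the DSS group had few of these genes called on the TMM scale, in which most genes of the library are taken as unchanged. Of the 45 genes with enough counts for a test, 2 were lower in the DSS group and 0 were higher in edgeR (Benjamini-Hochberg adjusted p under 0.05), where 5 had an unadjusted P under 0.05, against 49.8% of all genes. DESeq2 also called 2 lower and 0 higher (11.8% and 13.9% of all genes). These 2, Cdc6 and Ccne2, make up 4.44% of the genes of the set, whereas 40.9% of all 12566 genes tested were called in that comparison (21.5% higher and 19.5% lower). The median log2 fold change of the set was 0.06, against 0.02 for all genes. Of the 45 genes 3 (6.67%) had an absolute log2 fold change beyond 1, against 37.5% of all genes. The median standard error of the log2 fold changes was 0.28 for the set and 0.34 for all genes. Between the DSS and control groups 36 of the 45 genes overlapped, 3 were higher in every DSS mouse than in every control mouse and 6 were lower, whereas 52.0% of all genes did not overlap (26.1% higher and 25.9% lower). The count called lower was 0 without control mouse 2, 1 without DSS mouse 1 and 3 without DSS mouse 2. Of all genes, 14.4%, 23.5% and 15.3% were lower in these fits.

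Compared with the DSS group, the DSS + EA group had 8 of the 45 genes higher and 0 lower (edgeR, adjusted p-value under 0.05), on the TMM scale. The background was 35.5% of all genes tested, 17.2% higher and 18.3% lower, so that the share of the set that was called, 17.8%, was smaller than that of all genes, while the share called higher was close to that of all genes. The 8 were Cdc6, Cdc45, Tyms, Ccnd1, Ccne2, Uhrf1, Aurka and Top2a. An unadjusted P under 0.05 was found for 14 genes, each of them higher in the DSS + EA group, where 46.9% of all genes had one and 22.9% were higher. DESeq2 called 7 higher and 0 lower (10.1% and 10.9% of all genes). The log2 fold change was positive in 37 genes and negative in 8, where 49% of all genes were positive and 51% negative. The median was 0.41 against -0.02 for all genes. In 14 genes every DSS + EA mouse was above every DSS mouse, and in 0 every DSS + EA mouse was below, where 47.4% of all genes did not overlap (24.2% higher and 23.3% lower). The DSS mice are shared by this comparison and the previous one, so that high or low values in them move both. The count called higher was 3 without DSS + EA mouse 3, 4 without DSS mouse 3, 5 without DSS + EA mouse 1, 9 without DSS mouse 1 and 10 without DSS mouse 2, and 8 without each of the other mice. In these fits the share of all genes called higher moved as well. It was 10.5%, 13.3%, 11.3%, 22.9% and 12.2% in that order, and 12.7% to 15.4% without each of the other mice.

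Between the DSS + EA and control groups, 0 of the 45 genes were called by edgeR, where 3.64% of all genes were called (3.00% higher and 0.637% lower). The unadjusted P was under 0.05 for 9 genes, each higher in the DSS + EA group. Of all genes, 17% had one, and 10.6% of all genes had one and were higher. DESeq2 called 1, Rrm2, as higher, with 2.54% of all genes higher. The log2 fold change was positive in 39 genes and negative in 6, where 50.1% of all genes were positive and 49.9% negative. The median was 0.40 against 0 for all genes. In 18 genes every DSS + EA mouse was above every control mouse and in 0 below, where 32.2% of all genes did not overlap (18.0% higher and 14.2% lower). With the thresholds of the study's methods, an absolute log2 fold change of more than 2.5 with P under 0.01, none of the 45 genes passed in any of the 3 comparisons, whereas 10.2% (6.62% higher and 3.57% lower), 6.41% (2.91% and 3.50%) and 2.08% (1.74% and 0.334%) of all genes did.

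**Figure D1:**
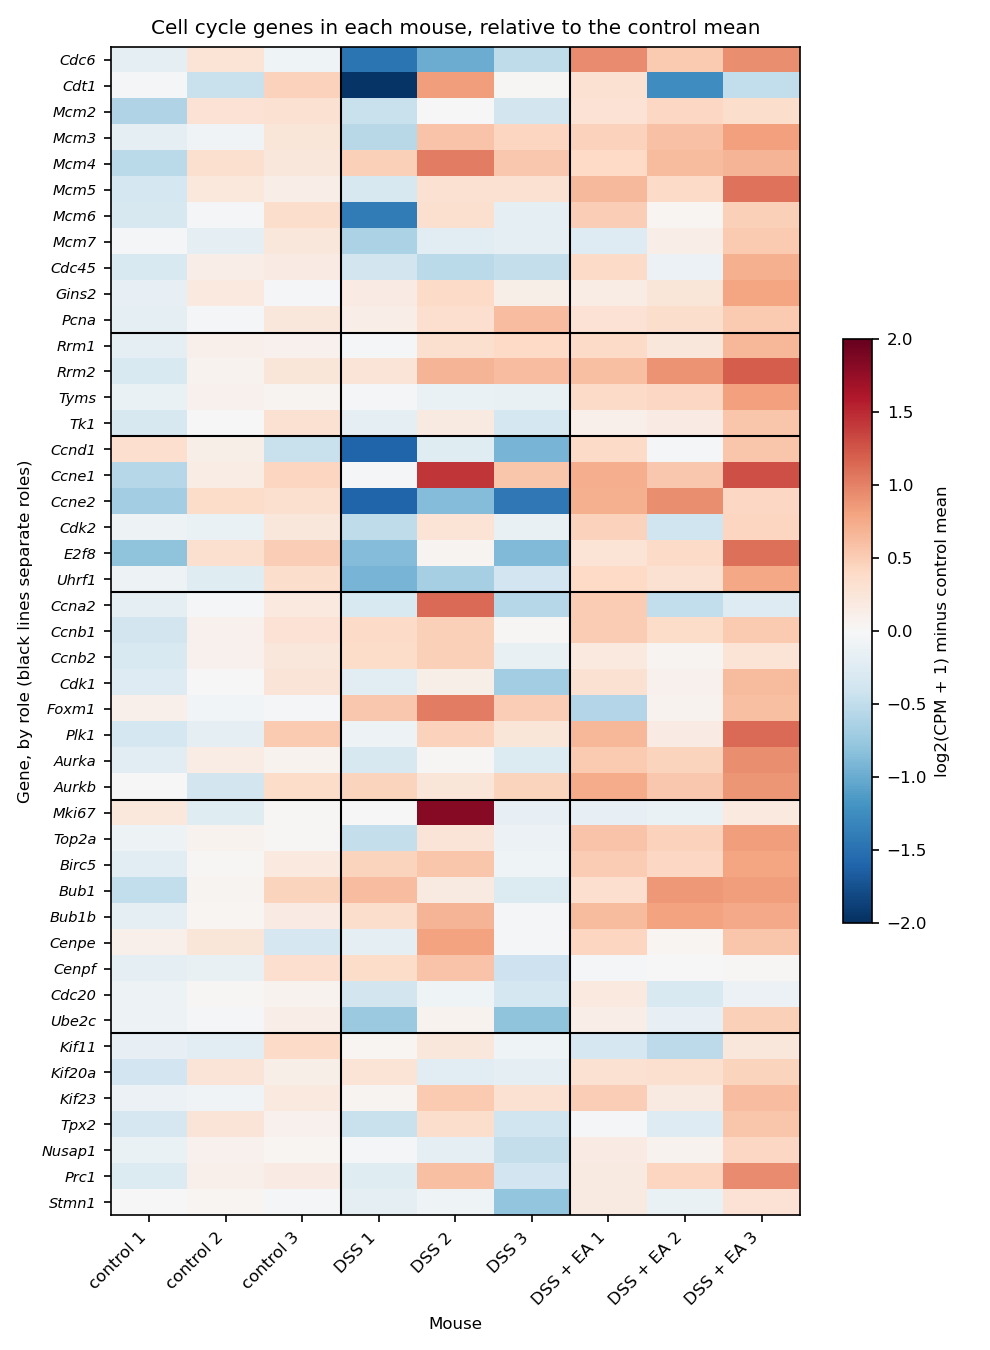
Level of each of the 45 genes tested (rows, grouped by role) in each of the 9 mice (columns), as log2(CPM + 1) minus the mean of the control mice on the TMM scale, from blue (lower) to red (higher). The columns of the DSS + EA mice are mostly red, DSS mouse 1 is the most blue of the DSS mice, and the darkest red cell is Mki67 in DSS mouse 2, at 88.6 CPM.

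These directions hold for the TMM scale, and relative to the epithelial genes they differed. Scaled to 8 epithelial genes instead, the median of all genes moved by 1.33 on the log2 scale between the DSS and control groups and by -1.22 between the DSS + EA and DSS groups. On that scale 20 of the 45 genes were higher and 0 lower in DSS mice than in control mice, while 44.8% of all genes were higher and 3.59% lower. Between the DSS + EA and DSS groups 0 were higher and 2, Foxm1 and Mki67, were lower, while 3.10% of all genes were higher and 39.0% lower. Set against the median of all genes, the median of the set stood 0.43 above it with TMM and 0.42 above it with the epithelial scale in the DSS + EA against DSS comparison, and 0.04 and 0 above it in the DSS against control comparison. The scale moves every gene of a comparison by about the same amount, so these differences could not change much and are no second test. The summed level of the 46 genes per 1000 CPM of epithelial markers was 118, 136 and 139 CPM in control mice 1 to 3. It was 112, 400 and 497 CPM in DSS mice 1 to 3, and 174, 164 and 215 CPM in the DSS + EA mice. The ratio in DSS mice 2 and 3 lay above that of every other mouse, and that of DSS mouse 1 was the lowest of the 9. Fold changes below are on the TMM scale.

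**Figure D2:**
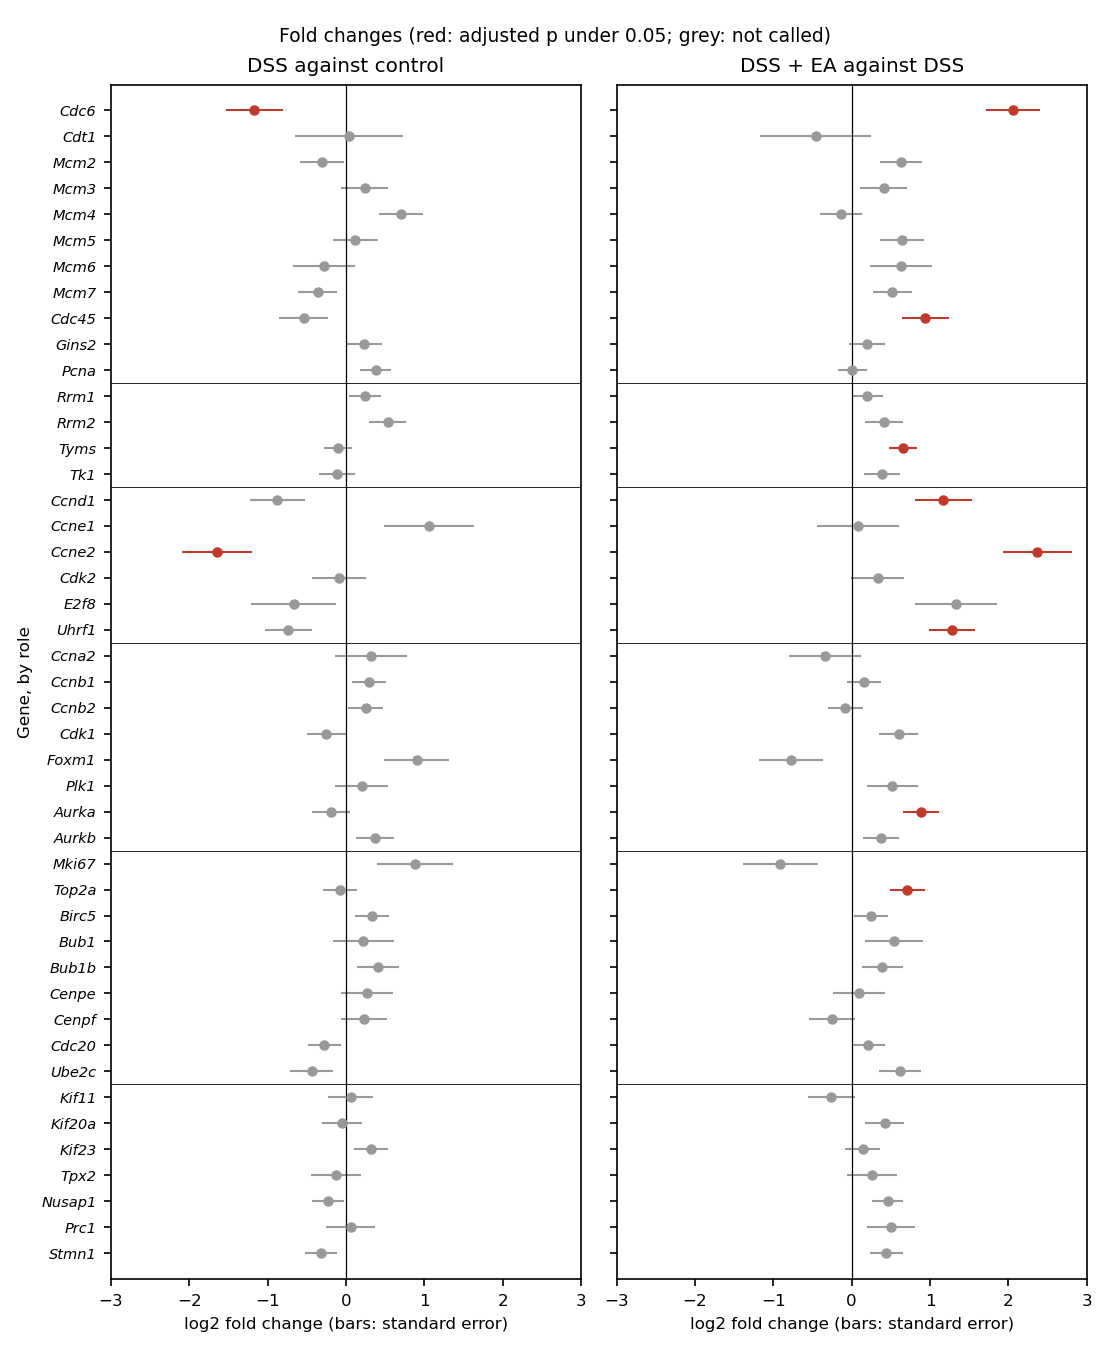
Log2 fold change of each of the 45 genes tested in the DSS against control (left) and DSS + EA against DSS (right) comparisons on the TMM scale, with bars for the standard error. Red points passed an adjusted p-value of 0.05. The DSS mice enter both panels, where 2 points are red on the left, both below 0, and 8 on the right, all above 0. Of all genes, 40.9% were called on the left and 35.5% on the right. Scaled to the epithelial genes, the red points on the right that stay above 0 are Cdc6 and Ccne2. Among the grey points on the right, E2f8 stays above 0 as well.

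The promoters of 5 of these genes are shown because the known promoter words they hold differ by role. RefSeq (GRCm38.p6) gave windows of 250 bases before to 50 bases after the start site for 36 of the 46 genes, 39 windows in all. They were searched on both strands for 4 words of the E2F site (TTTCCCGC, TTTCGCGC, TTTGCCGC and TTTGGCGC), for the CHR word TTTGAA and for CCAAT, the NF-Y box. Words could overlap, as the first pair of E2F words of Mcm6 does. Capitals mark every match on either strand, and each sequence is given 5′ to 3′ along the gene.

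Cdc6, chr11:98907901-98908200, plus strand: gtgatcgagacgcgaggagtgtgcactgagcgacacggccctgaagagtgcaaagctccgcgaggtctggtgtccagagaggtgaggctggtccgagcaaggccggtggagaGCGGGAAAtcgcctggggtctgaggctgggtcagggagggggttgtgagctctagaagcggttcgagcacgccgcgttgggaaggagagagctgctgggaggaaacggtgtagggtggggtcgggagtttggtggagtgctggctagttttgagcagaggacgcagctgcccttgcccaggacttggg
Mcm6, chr1:128359656-128359955, minus strand: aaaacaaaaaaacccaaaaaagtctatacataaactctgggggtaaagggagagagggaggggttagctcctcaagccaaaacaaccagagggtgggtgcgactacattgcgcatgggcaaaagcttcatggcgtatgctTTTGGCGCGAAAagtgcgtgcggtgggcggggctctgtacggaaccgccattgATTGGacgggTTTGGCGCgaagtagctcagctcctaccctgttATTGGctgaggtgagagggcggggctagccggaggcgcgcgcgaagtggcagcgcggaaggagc
Aurka, chr2:172370521-172370820, minus strand: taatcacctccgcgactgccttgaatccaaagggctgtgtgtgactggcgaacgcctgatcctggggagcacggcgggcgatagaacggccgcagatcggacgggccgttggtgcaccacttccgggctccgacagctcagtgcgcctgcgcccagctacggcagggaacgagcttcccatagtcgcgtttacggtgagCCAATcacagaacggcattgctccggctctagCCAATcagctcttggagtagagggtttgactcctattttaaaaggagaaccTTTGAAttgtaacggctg
Top2a, chr11:99024140-99024439, minus strand: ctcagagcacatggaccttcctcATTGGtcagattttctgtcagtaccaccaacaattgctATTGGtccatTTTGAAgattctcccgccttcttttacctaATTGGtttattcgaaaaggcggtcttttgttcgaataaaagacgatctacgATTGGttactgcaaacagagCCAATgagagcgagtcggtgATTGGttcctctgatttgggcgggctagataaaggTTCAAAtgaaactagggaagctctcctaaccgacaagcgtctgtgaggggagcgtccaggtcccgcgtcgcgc
Mki67, chr7:135716330-135716629, minus strand: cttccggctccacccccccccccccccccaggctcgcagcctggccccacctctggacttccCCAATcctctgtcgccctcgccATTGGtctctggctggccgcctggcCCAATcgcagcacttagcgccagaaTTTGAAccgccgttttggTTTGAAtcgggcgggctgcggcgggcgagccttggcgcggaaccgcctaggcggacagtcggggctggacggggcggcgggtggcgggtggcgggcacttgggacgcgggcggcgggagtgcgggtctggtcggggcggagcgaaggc

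In Mcm6, 3 E2F words lay at -110, -106 and -47 from the start site, and in Cdc6 there was 1, at -138. The GENCODE gene model of Cdc6 begins upstream of the RefSeq start used for its window, and the whole window lies within that model. Windows of E2f1, Mcm7 and Uhrf1 also lie wholly within their GENCODE gene models. All of these windows are counted in the shares that follow. The promoters of Aurka, Top2a and Mki67 held no E2F word, but held the CHR word at 33 in Aurka, at -179 and -23 in Top2a and at -116 and -98 in Mki67. Across the set, 23.1% of the windows held an E2F word, against 2.3% of all 32851 promoter windows. E2F words were found in 60% of the 10 windows of the pre-replication and fork genes and 33.3% of the 6 of the S-phase regulators. In the mitotic kinase role 20% of 5 windows held one, that of Cdk1. In the nucleotide supply, spindle checkpoint and spindle motor roles, with 4, 9 and 5 windows, 0% held one. The CHR word was found in 43.6% of the windows of the set, against 17.9% of all windows. It was found in 80.0% of the windows of the mitotic kinase role, 66.7% of the spindle checkpoint role, 80.0% of the spindle motor role, 20% of the fork role, 16.7% of the S-phase regulators and 0% of the nucleotide supply role. In the spindle motor role Prc1 entered with overlapping windows, and by gene the share was 75.0% of 4. CCAAT was found in 79.5% of the windows of the set and in 37.4% of all windows. The 7 windows of genes called in the DSS + EA against DSS comparison held an E2F word in 28.6% of cases, against 21.9% of the other 32 windows, and the CHR word in 42.9%, against 43.8%. These matches describe letters in a window and not binding.

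Of the 11 genes that license and fire origins, 1 was lower in the DSS group than in control mice and 2 were higher in DSS + EA than in DSS mice. That is 9.09% and 18.2% of the role, against 19.5% of all genes lower and 17.2% higher in these comparisons. CDC6 loads the MCM helicase onto origins in G1, and its gene (ENSMUSG00000017499) lies at chr11:98907801-98923940 on the plus strand. Cdc6 was at 5.29, 7.59 and 5.7 CPM in control mice 1 to 3, at 1.6, 2.59 and 4.02 CPM in DSS mice 1 to 3 and at 12.7, 9.26 and 12.6 CPM in DSS + EA mice 1 to 3. These levels rest on 5 to 42 counts per mouse. Every DSS mouse was below every control mouse, and every DSS + EA mouse was above all others. The mean was 6.2 ± 1.22 CPM (SD, n = 3) for control, 2.74 ± 1.22 CPM for DSS and 11.5 ± 1.95 CPM for DSS + EA. The log2 fold change was -1.17 ± 0.36 (SE; edgeR adjusted p = 0.028) in DSS against control and 2.06 ± 0.35 (adjusted p = 0.00242) in DSS + EA against DSS. The second call was kept without each mouse in turn, at 1.85 to 2.38, whereas the first was lost in a fit of the 2 groups alone (-1.15) and without control mouse 2 (-1.03), DSS mouse 1 (-0.95) or DSS mouse 2 (-1.10).

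CDC45 joins MCM and GINS to form the active helicase, and its gene (ENSMUSG00000000028) lies at chr16:18780447-18811987 on the minus strand. Cdc45 was at 6.05, 8.58 and 8.75 CPM in the control mice, at 5.74, 4.96 and 5.26 CPM in the DSS mice and at 10.3, 7.04 and 13.2 CPM in the DSS + EA mice. All DSS mice lay below the control mice, by a log2 fold change of -0.54 ± 0.31 that did not pass the test (adjusted p = 0.186). Cdc45 was higher in DSS + EA than in DSS mice by 0.94 ± 0.30 on the log2 scale (edgeR adjusted p = 0.0362). That call was lost in DESeq2 (0.96), in a fit of the 2 groups alone (0.96) and without DSS mouse 2 (0.88), DSS mouse 3 (0.91), DSS + EA mouse 1 (0.93) or DSS + EA mouse 3 (0.69).

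The 6 subunits of the MCM helicase gave no call. Mcm2 was at 13.1, 25.1 and 25.5 CPM in the control mice, at 14.7, 20.5 and 15.5 CPM in the DSS mice and at 25.1, 27.4 and 26.4 CPM in the DSS + EA mice. Its DSS + EA mice lay above its DSS mice, and the log2 fold change of 0.63 ± 0.27 had an edgeR adjusted p of 0.0973. Mcm5 was at 12.9, 19.5 and 18.3 CPM in the control mice, at 13.1, 20.7 and 20.7 CPM in the DSS mice and at 26.6, 21.9 and 36.5 CPM in the DSS + EA mice, which again lay above the DSS mice (0.64 ± 0.28, adjusted p = 0.101). Mcm6, with its 3 E2F words, ranged from 7.34 to 26.3 CPM in the DSS mice and from 21.5 to 29.9 CPM in the DSS + EA mice, and the groups overlapped. Mcm3 and Mcm7 had log2 fold changes of 0.41 and 0.52 between the DSS + EA and DSS groups. Mcm4 was higher in every DSS mouse than in every control mouse (10.8 to 20.5 CPM in the control mice and 23 to 33.8 CPM in the DSS mice), with a log2 fold change of 0.70 ± 0.28 that did not pass (adjusted p = 0.0666), and was at -0.14 ± 0.27 between the DSS + EA and DSS groups. Cdt1, whose protein loads MCM together with CDC6, had the largest standard errors of the set (0.69 and 0.71), at 0.957, 12.7 and 6.81 CPM in the DSS mice and 8.46, 2.22 and 4.41 CPM in the DSS + EA mice, on 3 to 59 counts. Gins2, which encodes a GINS subunit, had log2 fold changes of 0.23 and 0.20 in the 2 comparisons.

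Pcna encodes the sliding clamp that holds DNA polymerases on the template. It was at 45.6, 50.5 and 61.2 CPM in the control mice, at 57.4, 65.7 and 80.8 CPM in the DSS mice and at 64, 66.7 and 74.9 CPM in the DSS + EA mice. The range of the DSS + EA mice lay within that of the DSS mice, with a log2 fold change of 0.01 ± 0.19, and both had higher means than the control mice without passing the test (0.38 ± 0.20 and 0.39 ± 0.20, adjusted p = 0.15 and 0.356).

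All 4 genes of nucleotide supply had a positive log2 fold change between the DSS + EA and DSS groups, and 1 (25%) was called. Of all genes, 49% had a positive value and 17.2% were called higher. TYMS makes thymidylate, and its gene (ENSMUSG00000025747) lies at chr5:30058202-30073617 on the minus strand. Tyms was at 53.7, 62.7 and 61.2 CPM in the control mice, at 58.4, 53.5 and 53.3 CPM in the DSS mice and at 77, 78.9 and 105 CPM in the DSS + EA mice. The control and DSS mice overlapped, and all DSS + EA mice were above both. Tyms was higher in DSS + EA than in DSS mice by 0.66 ± 0.18 on the log2 scale (edgeR adjusted p = 0.0192) and stood 0.56 ± 0.18 above the control group without passing (adjusted p = 0.148). The call was lost without DSS mouse 2 (0.63), DSS mouse 3 (0.61) or DSS + EA mouse 3 (0.48). Rrm2, the regulated subunit of ribonucleotide reductase, was at 19.2, 25.1 and 28.5 CPM in the control mice, at 28.7, 39 and 37.2 CPM in the DSS mice and at 36.8, 45.6 and 57 CPM in the DSS + EA mice. All control mice lay below all other mice, and its log2 fold changes of 0.53 ± 0.24, 0.41 ± 0.24 and 0.94 ± 0.24 in the DSS against control, DSS + EA against DSS and DSS + EA against control comparisons did not pass in edgeR (adjusted p = 0.102, 0.2 and 0.067). The last passed in DESeq2, in a fit of those 2 groups alone and without DSS mouse 1, at 0.95 in each. Rrm1, the large subunit, and Tk1, thymidine kinase, were at 0.20 and 0.39 on the log2 scale between the DSS + EA and DSS groups.

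Among the regulators of S-phase entry, 1 of the 6 genes tested was lower in the DSS group than in control mice and 3 were higher in DSS + EA than in DSS mice, against 19.5% of all genes lower and 17.2% higher. The median log2 fold change of the 6 was -0.71 in the first and 1.23 in the second comparison, the largest of the 6 roles in size, against 0.02 and -0.02 for all genes. Both comparisons use the same DSS mice. Cyclin E2 activates CDK2 before S phase, and its gene Ccne2 (ENSMUSG00000028212) lies at chr4:11191351-11204779 on the plus strand. Ccne2 was at 3.28, 7.92 and 7.6 CPM in the control mice, at 1.28, 2.8 and 1.55 CPM in the DSS mice and at 10.3, 12.2 and 8.18 CPM in the DSS + EA mice, on 4 to 34 counts. The 3 groups did not overlap, with DSS lowest and DSS + EA highest. The log2 fold change was -1.65 ± 0.45 in DSS against control (edgeR adjusted p = 0.0158) and 2.37 ± 0.44 in DSS + EA against DSS (adjusted p = 0.00342). The first call was lost without control mouse 2 (-1.47), and the second was kept without each mouse in turn (2.20 to 2.81). Ccne1, the other cyclin E gene, gave no call. Its levels were 1.01, 2.31 and 3.04 CPM in the control mice, at 1.91, 7.11 and 3.41 CPM in the DSS mice and at 3.93, 3.33 and 6.29 CPM in the DSS + EA mice, on 4 to 33 counts. Its mean was 2.12 ± 1.03 CPM in the control group and 4.14 ± 2.68 CPM in the DSS group (SD, n = 3; log2 fold change 1.06 ± 0.57, edgeR adjusted p = 0.162).

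Uhrf1 (ENSMUSG00000001228, chr17:56303321-56323486, plus strand) encodes the protein that brings DNA methyltransferase to newly copied DNA. It was at 8.07, 7.26 and 11.4 CPM in the control mice, at 4.15, 5.17 and 6.5 CPM in the DSS mice and at 11.8, 11.1 and 15.7 CPM in the DSS + EA mice. The DSS mice lay below all others, by -0.74 ± 0.30 against control on the log2 scale, which did not pass (adjusted p = 0.0711). Uhrf1 was higher in DSS + EA than in DSS mice, by 1.28 ± 0.29 (edgeR adjusted p = 0.00889), and the call was kept without each mouse in turn (1.10 to 1.42). Cyclin D1 couples growth signals to CDK4 and CDK6, and its gene Ccnd1 (ENSMUSG00000070348) lies at chr7:144929931-144939925 on the minus strand. Ccnd1 was at 50.7, 43.2 and 28.9 CPM in the control mice, at 12.4, 33.6 and 20.4 CPM in the DSS mice and at 52.2, 39.3 and 59.2 CPM in the DSS + EA mice. The DSS mice were below every DSS + EA mouse but overlapped the control mice. Ccnd1 was higher in DSS + EA than in DSS mice by 1.17 ± 0.36 (edgeR adjusted p = 0.0287), a call lost with library totals in place of TMM (1.08), in a fit of the 2 groups alone (1.19) and without DSS mouse 3 (1.08), DSS + EA mouse 1 (1.13) or DSS + EA mouse 3 (1.02). Between DSS and control its log2 fold change was -0.88 ± 0.35 (adjusted p = 0.0727), which passed without DSS mouse 2 (-1.30).

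E2f8, an E2F that represses its targets, was at 1.91, 4.53 and 1.86 CPM in the DSS mice and at 5.44, 5.93 and 10.4 CPM in the DSS + EA mice. Its DSS + EA mice lay above its DSS mice, at 1.33 ± 0.52 on the log2 scale, without passing (edgeR adjusted p = 0.0688), and passed without DSS mouse 2 (1.92, adjusted p = 0.0427). Cdk2, the kinase that cyclin E activates, had log2 fold changes of -0.09 and 0.33 in the 2 comparisons. E2f1 had too few counts for a test, with 6, 2 and 1 counts in control mice 1 to 3, 2, 7 and 2 in the DSS mice and 1, 0 and 0 in the DSS + EA mice, where 3 counts correspond to 0.647 to 1.14 CPM. E2f1 was thus at or under the floor of 3 counts in 7 of the 9 mice, and no fold change is given.

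**Figure D3:**
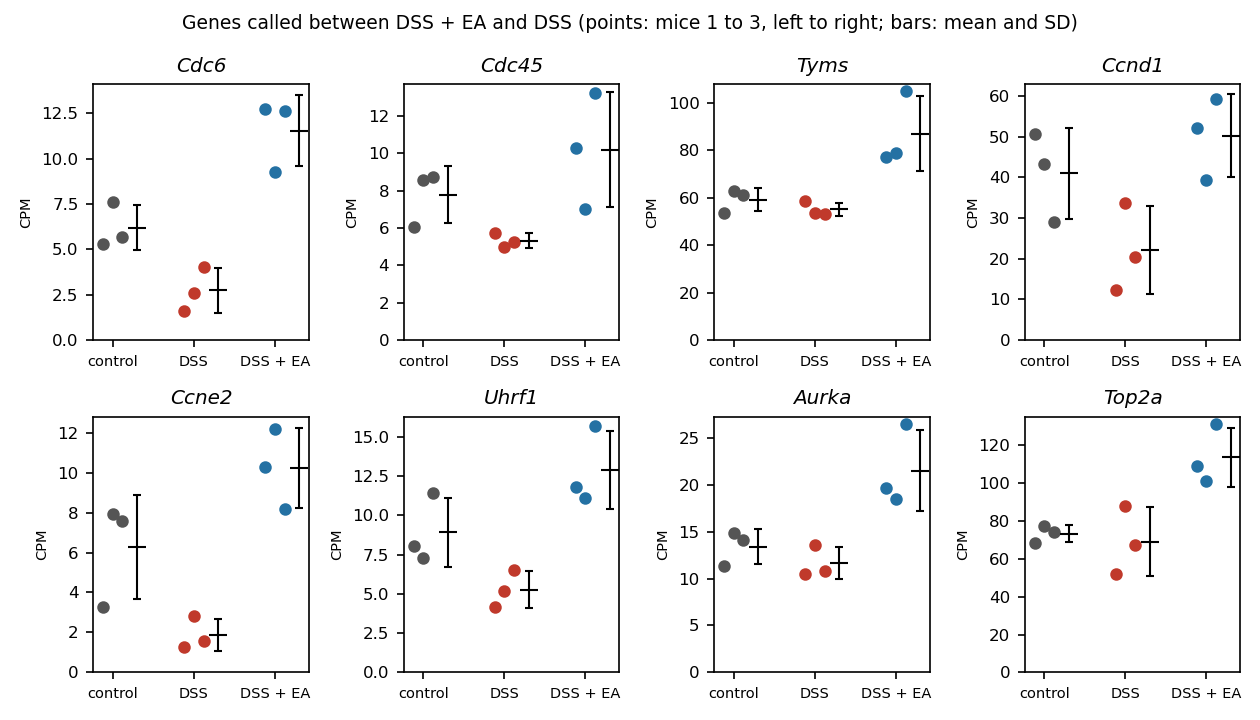
CPM of the 8 genes called between the DSS + EA and DSS groups on the TMM scale, in each mouse (points, mice 1 to 3 from left to right) with the mean and SD of each group of 3 (bars). In every panel the DSS + EA points lie above the DSS points, and in the panels of Cdc6, Ccne2, Uhrf1 and Cdc45 the DSS points also lie below the control points; scaled to the epithelial genes, the fold changes of 6 of the 8 turn negative and those of Cdc6 and Ccne2 stay positive.

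Of the 8 mitotic cyclins, kinases and FOXM1, 0 were called in DSS against control (edgeR) and 1, Aurka, was higher in DSS + EA against DSS. That is 0% and 12.5% of the role, against 40.9% of all genes called in the first comparison and 17.2% higher in the second. Aurora A kinase matures the centrosomes, and its gene (ENSMUSG00000027496) lies at chr2:172356190-172370535 on the minus strand. Aurka was at 11.3, 14.8 and 14.1 CPM in the control mice, at 10.5, 13.6 and 10.8 CPM in the DSS mice and at 19.6, 18.5 and 26.4 CPM in the DSS + EA mice. Control and DSS mice overlapped, and the DSS + EA mice were above both. Aurka was higher in DSS + EA than in DSS mice by 0.88 ± 0.23 (edgeR adjusted p = 0.0167), which did not pass without DSS + EA mouse 3 (0.69). Aurkb, the kinase of the chromosomal passenger complex, was at 18.5, 16 and 18.6 CPM in the DSS mice and at 23, 20 and 25.5 CPM in the DSS + EA mice, with no overlap and no call (0.37 ± 0.23, adjusted p = 0.233).

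CDK1 with cyclin B is the kinase that starts mitosis. Cdk1 was at 48.2, 58.1 and 69.6 CPM in the control mice, at 49.2, 63.2 and 35.3 CPM in the DSS mice and at 72.2, 61.9 and 90.3 CPM in the DSS + EA mice. DSS and DSS + EA mice overlapped, and the log2 fold change of 0.60 ± 0.25 had an edgeR adjusted p of 0.0894, which passed without DSS mouse 2 (0.82). Ccnb1 was at 25, 34.6 and 39.9 CPM in the control mice, at 42.8, 45.7 and 33.1 CPM in the DSS mice and at 46.5, 42.2 and 47.5 CPM in the DSS + EA mice. For Ccnb1 the DSS mice overlapped both other groups (0.29 ± 0.22 and 0.16 ± 0.22), and for Ccnb2 the log2 fold changes were 0.25 and -0.08. Plk1, a kinase active from the entry into mitosis to its exit, was at 9.58, 10.9 and 18.3 CPM in the control mice, at 11.5, 17.5 and 14.9 CPM in the DSS mice and at 20.2, 14.1 and 28.6 CPM in the DSS + EA mice. Its groups overlapped (0.20 ± 0.34 and 0.52 ± 0.33).

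Foxm1, the transcription factor of G2 and mitotic genes, was at 3.03, 2.64 and 2.66 CPM in the control mice, at 4.47, 6.68 and 4.33 CPM in the DSS mice and at 1.51, 2.96 and 4.72 CPM in the DSS + EA mice, on 5 to 31 counts. Every DSS mouse was above every control mouse, by 0.90 ± 0.41 on the log2 scale, without passing the test (edgeR adjusted p = 0.108). Between the DSS + EA and DSS groups the difference was -0.77 ± 0.41 (adjusted p = 0.167). Ccna2, cyclin A2 of S and G2 phase, was at 14.1, 15.8 and 18.6 CPM in the control mice, at 12.8, 36.4 and 10.5 CPM in the DSS mice and at 23.3, 11.1 and 13.2 CPM in the DSS + EA mice. DSS mouse 2 alone was high. Without it, the log2 fold change of Ccna2 went from 0.32 to -0.45 in DSS against control and from -0.34 to 0.44 in DSS + EA against DSS.

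Ki-67, the proliferation marker that coats mitotic chromosomes, had its high value in the same mouse. Mki67 (ENSMUSG00000031004, chr7:135689784-135716361, minus strand) was at 28.5, 20.5 and 24.7 CPM in the control mice, at 24.3, 88.6 and 21.7 CPM in the DSS mice and at 21.7, 22.2 and 28 CPM in the DSS + EA mice. Apart from DSS mouse 2, which held 411 counts, all mice lay between 20.5 and 28.5 CPM. The log2 fold change was 0.88 ± 0.48 in DSS against control and -0.91 ± 0.48 in DSS + EA against DSS (edgeR adjusted p = 0.169 and 0.16), and without DSS mouse 2 it was -0.08 and 0.06. The longest coding transcript of Mki67 in GENCODE has 10.06 kb. In DSS mouse 2 the 1438 genes whose longest coding transcript has 6 kb or more took 4.15% of the CPM, against 2.64% to 3.24% in the other 8 mice. Their median log2 level relative to the control mean was 0.47 in DSS mouse 2, against 0.04 and 0.17 in DSS mice 1 and 3. The other long transcripts of the set were less far out in that mouse. Cenpf, a kinetochore protein gene of 11.13 kb, was at 18.2, 21.1 and 10.2 CPM in the DSS mice, and Cenpe, a kinetochore motor gene of 7.91 kb, at 9.26, 19.6 and 10.5 CPM. The part of transcript length in the level of Mki67 was not tested.

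**Figure D4:**
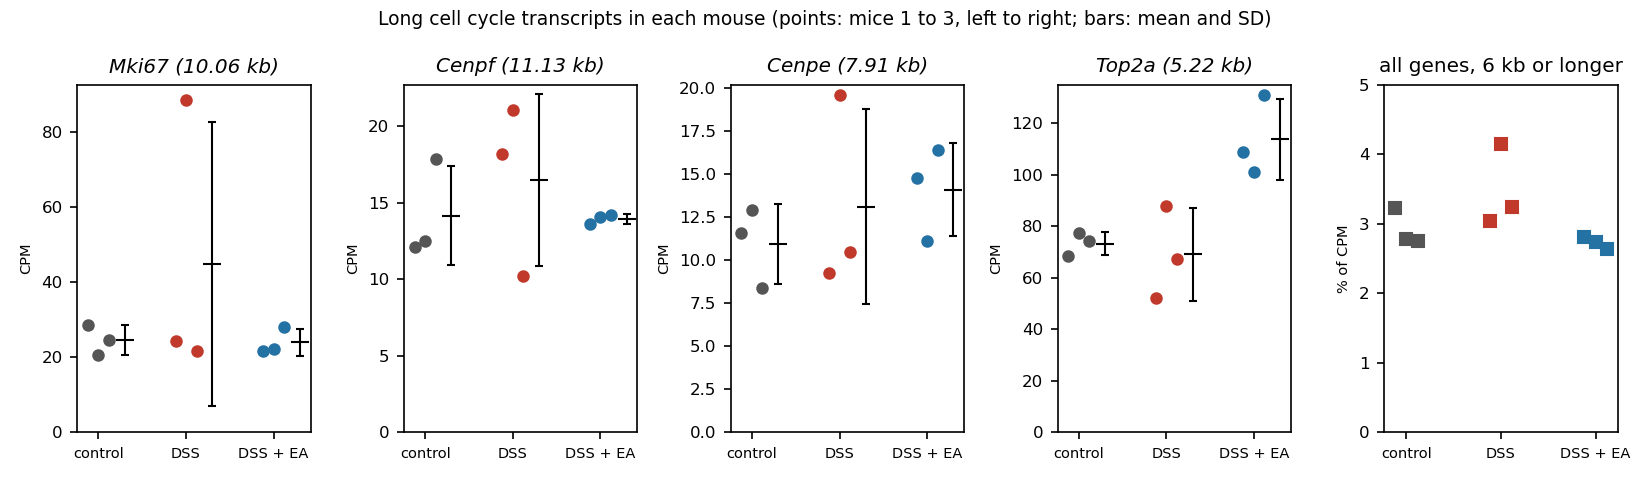
CPM of Mki67, Cenpf, Cenpe and Top2a in each mouse (points, mice 1 to 3 from left to right, with mean and SD), each with the length of its longest coding transcript, and in the last panel the share of CPM from all genes of 6 kb or longer (squares). DSS mouse 2 is the highest DSS mouse in every panel, with 88.6 CPM of Mki67 and 4.15% of the CPM in long genes.

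Top2a, which encodes the topoisomerase that untangles sister chromatids, was higher in DSS + EA against DSS. Its gene (ENSMUSG00000020914) lies at chr11:98992943-99024189 on the minus strand. Top2a was at 68.3, 77.2 and 74.1 CPM in the control mice, at 52, 88 and 67.2 CPM in the DSS mice and at 109, 101 and 131 CPM in the DSS + EA mice. Control and DSS mice overlapped, and the DSS + EA mice were above both. The log2 fold change in DSS + EA against DSS was 0.71 ± 0.22 (edgeR adjusted p = 0.0278). The call was lost with library totals (0.63), in the fit of the 2 groups alone (0.73) and without DSS mouse 3 (0.66), DSS + EA mouse 1 (0.74) or DSS + EA mouse 3 (0.58), and against control Top2a passed in the fit of those 2 groups alone (0.64). For each 100 counts of Top2a there were 41.7, 26.5 and 33.3 counts of Mki67 in the control mice, 46.6, 101 and 32.3 in the DSS mice and 20, 22.1 and 21.4 in the DSS + EA mice. This ratio was lower in every DSS + EA mouse than in any other mouse, and it is given as a description.

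The other genes of chromosomes, checkpoint and anaphase gave no call. With Top2a, 11.1% of the role was called in DSS + EA against DSS, against 35.5% of all genes. Birc5, survivin of the passenger complex, was at 38.8, 45.9 and 51.7 CPM in the control mice, at 61.6, 66.8 and 42.7 CPM in the DSS mice and at 64.3, 60.4 and 79 CPM in the DSS + EA mice, which lay above all control mice (0.58 ± 0.22, edgeR adjusted p = 0.214). Cdc20, the activator of the anaphase-promoting complex, was at 19.4, 21.4 and 22.1 CPM in the control mice, at 16, 19.6 and 16.1 CPM in the DSS mice and at 24.2, 16.7 and 19.2 CPM in the DSS + EA mice, with overlap throughout. Ube2c, the ubiquitin-conjugating enzyme of that complex, was at 81.9, 86.4 and 97 CPM in the control mice, at 52.3, 92.3 and 49.8 CPM in the DSS mice and at 96.9, 78.5 and 123 CPM in the DSS + EA mice. DSS mouse 2 was again the high one of its group for Ube2c. Without it, Ube2c passed the test in both comparisons, at -0.77 in DSS against control and 0.95 in DSS + EA against DSS, where it had been at -0.44 ± 0.27 and 0.62 ± 0.27 with all mice (adjusted p = 0.209 and 0.0973). Bub1 and Bub1b, kinases of the spindle checkpoint, were at log2 fold changes of 0.22 and 0.41 between the DSS and control groups and by 0.54 and 0.39 between the DSS + EA and DSS groups. Cenpf was at 12.1, 12.5 and 17.9 CPM in the control mice and 13.6, 14.1 and 14.2 CPM in the DSS + EA mice, and its groups overlapped in all comparisons.

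The 7 genes of the spindle and cytokinesis gave 0 calls in edgeR in any comparison. Of all genes, 40.9% were called in DSS against control, 35.5% in DSS + EA against DSS and 3.64% in DSS + EA against control. The log2 fold changes of the 7 lay between -0.32 and 0.32 in DSS against control and between -0.26 and 0.50 in DSS + EA against DSS. Of these, 1 gene, Nusap1, a spindle-associated protein gene, had an unadjusted P under 0.05 in the latter (0.46 ± 0.20, adjusted p = 0.0919), and it passed without DSS mouse 1 (0.59, adjusted p = 0.0365). DESeq2 called 0 of the 7 as well. Kif11, the motor that pushes spindle poles apart, was at 9.33, 8.91 and 14.1 CPM in the control mice, at 10.9, 12.5 and 9.91 CPM in the DSS mice and at 8.15, 7.04 and 12.6 CPM in the DSS + EA mice, with overlap of all groups. Kif20a, a motor of cytokinesis, was at 9.33, 15.2 and 13.7 CPM in the control mice, at 15.3, 10.6 and 10.8 CPM in the DSS mice and at 15.7, 15.9 and 17.3 CPM in the DSS + EA mice, which lay above all others by a difference that did not pass (0.42 ± 0.25 against DSS, adjusted p = 0.219). Stmn1, which encodes a microtubule-destabilizing protein, was at 91.5, 95 and 89.4 CPM in the control mice, at 81.1, 86.7 and 52.6 CPM in the DSS mice and at 104, 84.1 and 112 CPM in the DSS + EA mice. Every DSS mouse of Stmn1 was below every control mouse (-0.32 ± 0.21, adjusted p = 0.254). Kif23 and Prc1 of the central spindle and Tpx2, the activator of Aurora A, had log2 fold changes of 0.14, 0.50 and 0.26 between the DSS + EA and DSS groups. The value of Prc1 passed the test without DSS mouse 2 (0.88, adjusted p = 0.0472).

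The CPM was also summed over each role. The S-phase regulators summed to 73.6, 73.9 and 66.9 CPM in the control mice, 27.4, 64.2 and 41.2 CPM in the DSS mice and 94.8, 77.4 and 110 CPM in the DSS + EA mice, so that the groups did not overlap. Ccnd1 alone held 40.9 of the mean 71.5 CPM in the control group. On the mean log2 level of the 6 genes tested, relative to the control mean, DSS mouse 2 was at 0, within the control range of -0.32 to 0.23. The nucleotide supply genes summed to 173, 212 and 231 CPM in the control mice, 198, 235 and 210 CPM in the DSS mice and 255, 262 and 345 CPM in the DSS + EA mice, above all other mice. The spindle genes summed to 201, 232 and 232 CPM in the control mice, 202, 242 and 162 CPM in the DSS mice and 251, 226 and 310 CPM in the DSS + EA mice, with overlap. For the other 3 roles, the sums of the DSS mice overlapped those of both other groups. Those of the fork genes and of the chromosome and checkpoint genes were higher in every DSS + EA mouse than in every control mouse. The pre-replication and fork genes summed to 182 to 253 CPM in the control mice, 181 to 270 CPM in the DSS mice and 269 to 340 CPM in the DSS + EA mice. The mitotic cyclins and kinases summed to 159 to 230, 166 to 258 and 215 to 288 CPM in these groups, and the chromosome and checkpoint genes to 270 to 311, 229 to 414 and 327 to 433 CPM. Over all 46 genes the sum was 1060, 1230 and 1320 CPM in the control mice, 1060, 1480 and 1060 CPM in the DSS mice and 1490, 1380 and 1830 CPM in the DSS + EA mice. Of the DSS mice, the one with 1480 CPM was DSS mouse 2, and the mouse with most epithelial RNA, DSS mouse 1, was at the lower value.

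Of 36 further replication genes tested, 4 were higher and 4 lower in DSS against control, and 7 were higher and 2 lower in DSS + EA against DSS, with medians of -0.11 and 0.42. The shares called, 22.2% and 25%, were below the 40.9% and 35.5% of all genes. Hells, a chromatin remodeler of replicating cells, was at 9.33, 9.57 and 14.8 CPM in the control mice, at 1.28, 5.17 and 4.02 CPM in the DSS mice and at 19, 15.9 and 24.5 CPM in the DSS + EA mice. It fell in the DSS group (-1.62 ± 0.42, edgeR adjusted p = 0.0126) and was higher with EA (2.45 ± 0.42, adjusted p = 0.0023). Rfc2, of the clamp loader, was also lower in the DSS group (-0.90 ± 0.24, adjusted p = 0.0135), and Asf1b, a histone chaperone, was higher in DSS + EA against DSS (1.18 ± 0.24, adjusted p = 0.00568). Prim2 and Orc2 were higher in the DSS group and lower in DSS + EA against DSS. Prim2, a primase subunit, was at 4.03, 3.63 and 4.56 CPM in the control mice, at 17.2, 14.4 and 13 CPM in the DSS mice and at 6.64, 7.04 and 9.76 CPM in the DSS + EA mice (1.86 ± 0.27 in DSS against control, adjusted p = 0.000675, and -0.92 ± 0.25 in DSS + EA against DSS, adjusted p = 0.0189). Orc2, of the origin recognition complex, had log2 fold changes of 1.37 ± 0.29 (adjusted p = 0.00513) and -0.87 ± 0.29 (adjusted p = 0.039).

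Of 45 further mitosis genes, 2 were higher and 3 lower in DSS against control, and 6 were higher and 0 lower in DSS + EA against DSS, with medians of 0.03 and 0.23. The shares called were 11.1% and 13.3%, against 40.9% and 35.5% of all genes. Knstrn, a kinetochore protein gene, and Pttg1, securin, were lower in the DSS group (-1.05 ± 0.26 and -0.80 ± 0.20, edgeR adjusted p = 0.00914 and 0.0119). Pttg1 was at 138, 135 and 134 CPM in the control mice, at 95.4, 56 and 83 CPM in the DSS mice and at 138, 128 and 144 CPM in the DSS + EA mice, so that control and DSS + EA mice shared a range that the DSS mice did not reach. Gtse1, a regulator of p53 in G2, and Kif22, a chromosome motor, were higher in the DSS group (1.05 ± 0.29 and 0.57 ± 0.19, adjusted p = 0.0154 and 0.0408). Ncapg, a condensin subunit, and Spc25, of the kinetochore, were higher in DSS + EA against DSS (1.63 ± 0.32 and 1.30 ± 0.28, adjusted p = 0.00445 and 0.00728). Of 13 further cyclins, kinases and cell-cycle transcription factors, 0 were called in DSS against control and 1, Tfdp1, the dimer partner of E2F, was higher in DSS + EA against DSS (0.73 ± 0.23, adjusted p = 0.0321). These are 0% and 7.69% of that list, against 40.9% and 35.5% of all genes. None of these 3 lists held a gene called between DSS + EA and control, where 3.64% of all genes were called.

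Inhibitors of the cell cycle held calls in both directions. Of 14 CDK inhibitors, pocket proteins and antiproliferative genes, 2 were higher and 4 lower in DSS against control (42.9% called, against 4.44% of the set and 40.9% of all genes), and 2 were higher and 3 lower in DSS + EA against DSS (35.7% called, against 35.5% of all genes). Cdkn2b, the gene of the CDK4 and CDK6 inhibitor p15, was at 30.5, 30.7 and 34.2 CPM in the control mice, at 4.15, 3.02 and 1.86 CPM in the DSS mice and at 25.4, 23 and 18.9 CPM in the DSS + EA mice. It was lower in the DSS group (-3.39 ± 0.28, edgeR adjusted p = 4.73e-05) and higher in DSS + EA than in DSS mice (2.88 ± 0.29, adjusted p = 0.000321). Rbl1, the pocket protein p107, had the same directions (-0.86 ± 0.24 and 1.39 ± 0.24, adjusted p = 0.017 and 0.00249). Cdkn2d, of the inhibitor p19, and Gadd45b, a stress gene, were higher in the DSS group (1.24 ± 0.29 and 1.51 ± 0.31, adjusted p = 0.0072 and 0.00416) and lower in DSS + EA against DSS (-1.25 ± 0.29 and -1.01 ± 0.30, adjusted p = 0.00893 and 0.0272). Of 9 p53 target genes, 3 were higher and 0 lower in DSS against control and 0 higher and 3 lower in DSS + EA against DSS, which is 33.3% called in each, against 40.9% and 35.5% of all genes. Bax, a death effector, was higher in the DSS group (0.73 ± 0.19, adjusted p = 0.0142), as was Mdm2, the p53 ubiquitin ligase (1.52 ± 0.48, adjusted p = 0.0277), and Mdm2 and Bbc3, the death effector PUMA, were lower in DSS + EA against DSS (-2.13 ± 0.50 and -1.98 ± 0.40, adjusted p = 0.0101 and 0.00494).

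**Figure D5:**
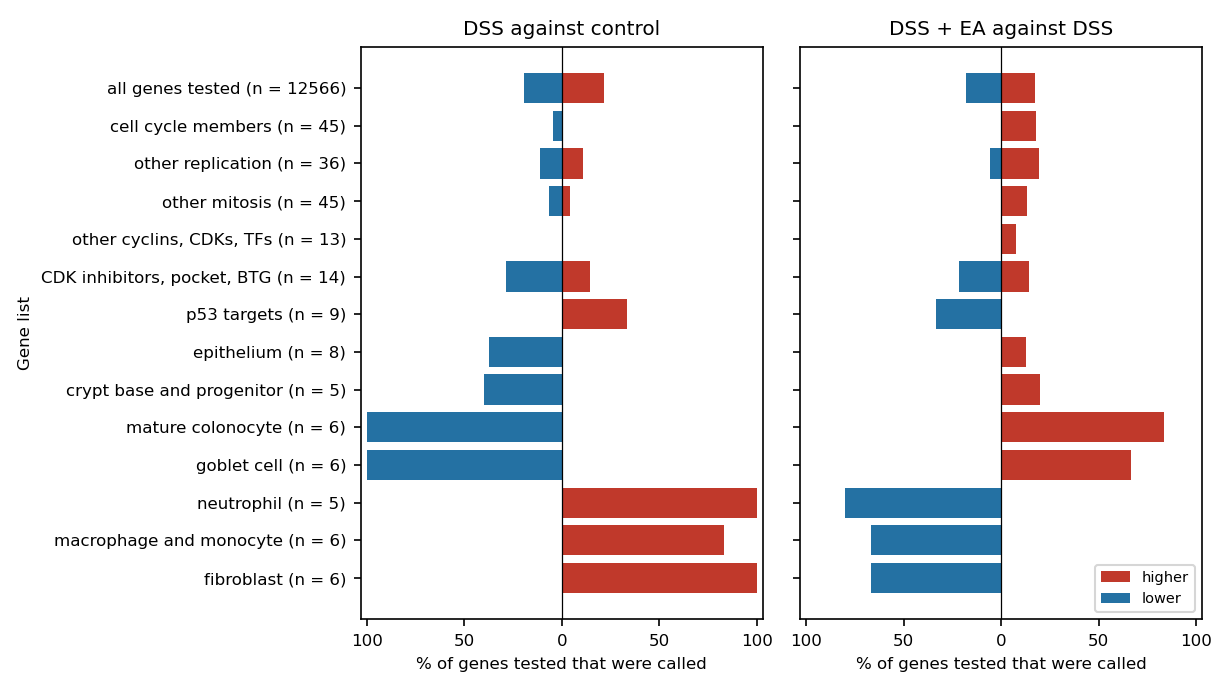
Share of the genes tested in each list that were called (edgeR, adjusted p under 0.05, TMM scale), higher to the right in red and lower to the left in blue, in DSS against control (left panel) and DSS + EA against DSS (right panel), which share the DSS mice. The set of 45 cell cycle genes reached 4.44% on the left, against 40.9% of all genes and 100% of the colonocyte, goblet cell, neutrophil and fibroblast markers. On the right it reached 17.8%, against 35.5% of all genes. Scaled to the epithelial genes, the set had 20 genes higher on the left, where 44.8% of all genes were higher. On that scale 2 were lower on the right, where 39.0% of all genes were lower.

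Markers of several cell types of the colon differed between the groups. All 6 goblet cell and all 6 mature colonocyte markers were lower in the DSS group than in control mice, and 4 and 5 of them were higher in DSS + EA against DSS. All 5 neutrophil markers tested, 5 of 6 macrophage markers and all 6 fibroblast markers were higher in the DSS group, and 4 of each were lower in DSS + EA against DSS. Of all genes, 21.5% were higher and 19.5% lower in DSS against control, and 17.2% higher and 18.3% lower in DSS + EA against DSS. Fibroblast markers summed to 748 to 817 CPM in the control mice, 4050 to 6740 CPM in the DSS mice and 1600 to 1690 CPM in the DSS + EA mice. Markers of the crypt base and progenitors, among which dividing cells are found, summed to 49.4 to 65.8 CPM in the control mice, 36.1 to 60.4 CPM in the DSS mice and 40.7 to 59.5 CPM in the DSS + EA mice, and the sums of the groups overlapped. Of the 5 tested, 2 were lower and 0 higher in DSS against control, with a median of -1.39. They were Ascl2 (-2.62 ± 0.44, edgeR adjusted p = 0.00145) and Sox9 (-1.07 ± 0.32, adjusted p = 0.0232). Smoc2, with most of the summed CPM in the DSS mice, had the one positive value (1.22 ± 0.46, adjusted p = 0.054). Ascl2 was higher in DSS + EA against DSS (1.5 ± 0.47, adjusted p = 0.032), and the other 4 were not called. The stem cell gene Lgr5 had too few counts for a test and was named after its values were seen. No comparison of groups is drawn from Lgr5. Germinal centre B cell markers summed to 11.3 to 17.8 CPM in the control mice, 16.4 to 23.2 CPM in the DSS mice and 13.3 to 16.7 CPM in the DSS + EA mice. General B cell markers summed to 19.4 to 35 CPM in the control mice and 13.3 to 28 CPM in the DSS mice. In DSS + EA mice 1 to 3 they summed to 31.7, 31.1 and 68 CPM. In DSS + EA against DSS, 2 of 3 B cell markers tested were higher, and 1 of 3 germinal centre markers was lower. The part of these cell types in the levels of the cell cycle genes was not tested.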

How the data were processed

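The authors deposited Nanopore read counts per gene and mouse as whole numbers, not normalized; the submitters' processing notes name the build mm10, and the aligner, counting tool, annotation and use of strand are not given in the sources used here, so reads of overlapping, antisense or near-identical genes may have been shared. The table had 14 malformed lines, which were skipped, and 27719 genes, of which 5620 held no count. Library totals were 2627695 to 4235576, so that 3 counts, the floor, were 0.647 to 1.14 CPM (counts scaled to a common library size with TMM). PCR copies could not be told from molecules, so floors cover counting error only.

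The test was edgeR 4.0.16 under R 4.3.3, with the quasi-likelihood F test, TMM, filterByExpr and a prior count of 0.125. A single fit over 9 mice kept 12566 genes. A call has a Benjamini-Hochberg adjusted p-value under 0.05 over all of them. The standard error is the log2 fold change divided by the square root of F. With 3 mice against 3 the smallest exact permutation p is 0.1, so all p-values come from this fit. Scripts were tested on simulated data. Positions and transcript lengths came from GENCODE, promoters from RefSeq (both GRCm38), read in Python 3.11.15 (pandas 2.3.3), and figures were drawn with matplotlib 3.10.9.

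The 46 genes, the other gene lists and the tests were chosen with earlier results of these data known. Every gene of the set is accounted for; values per mouse are given for the main genes of each role and for called genes of smallest P, and of each other cell cycle list the 2 called genes of smallest P in each direction are named. Lgr5 was added after its values were seen, as were the promoters printed. The alternatives were DESeq2 1.42.0, RLE or library totals in place of TMM, scaling to the epithelial genes, no filter, a mean of at least 20 counts, a prior count of 2, only the 2 groups compared, other thresholds, the replicate number as a block, and each mouse left out in turn.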

Additional observations from a re-analysis of the deposited data

How the results depend on the processing

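The share of all genes called in the same direction is given in brackets. The 8 genes called higher in DSS + EA against DSS (17.2%) became 6 with library totals (16%), 7 with DESeq2 (10.1%) and 7 with a mean of at least 20 counts (17%). They became 5 with only the 2 groups compared (12.2%) and 4 with a log2 fold change beyond 1 as well (13%). There were 0 with the study's thresholds (2.91%) or with epithelial scaling (3.10%), where 2 were lower (39.0%). With each mouse left out they numbered 3 to 10 (10.5% to 22.9%). The 2 genes called lower in DSS against control (19.5%) became 1 with a mean of at least 20 counts (19.8%) and 1 with the 2 groups alone (15.3%). There were 0 with the study's thresholds (3.57%) or epithelial scaling (3.59%), and 0 to 3 with each mouse left out (14% to 23.5%). The 0 called higher (21.5%) became 1, Mcm4, with library totals (22%) and 20 with epithelial scaling (44.8%). The 0 called higher in DSS + EA against control (3.00%) became 1 with DESeq2 (2.54%) and 3 with the 2 groups alone (6.95%). With each mouse left out there were 0 to 1 (0.632% to 4.49%). RLE, a prior count of 2 and no filter moved none of these counts. With a mean of at least 20 counts, 41 genes of the set were tested. Ccne2, the gene lost from both counts there, was not among them. The cause of the other moves was not tested.

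Replicate numbers are shared by different animals, and same-numbered mice deviated together with correlations of -0.16 to 0.11, so they do not pair the mice. With the replicate number as a block, 7 genes were higher in DSS + EA against DSS (Cdc45 was lost, at 0.91), 1 (Mcm4) was higher and 2 lower in DSS against control, and 0 were called in DSS + EA against control. Of all genes, 15.2% were higher in the first, 18.8% higher and 17.4% lower in the second, and 2.89% called in the third.

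Among all 45 genes, scaling to the epithelial genes turned 20 log2 fold changes positive in DSS against control and 34 negative in DSS + EA against DSS. Of the 26 genes whose values were followed one by one, those turned positive in DSS against control were Mcm2 (1.03), Cdc6 (0.27), Tyms (1.22), Ccnd1 (0.55), Uhrf1 (0.66), Cdk1 (1.01), Top2a (1.33), Cdc20 (1.06), Ube2c (0.89), Kif20a (1.16), Stmn1 (0.90), Cdc45 (0.72) and Aurka (1.13). Those turned negative in DSS + EA against DSS were Mcm2 (-0.60), Mcm5 (-0.71), Pcna (-1.34), Rrm2 (-0.90), Tyms (-0.56), Ccnd1 (-0.15), Ccne1 (-1.15), Uhrf1 (-0.01), Ccnb1 (-1), Cdk1 (-0.54), Plk1 (-0.76), Top2a (-0.59), Birc5 (-0.88), Cdc20 (-1.01), Ube2c (-0.61), Kif20a (-0.69), Stmn1 (-0.67), Cdc45 (-0.22) and Aurka (-0.34). That scale moves all genes by construction, since the epithelial genes themselves differ between groups. With each mouse left out, Ccna2 ranged from -0.45 to 0.63 and from -0.73 to 0.44 and Mki67 from -0.08 to 1.21 and from -1.27 to 0.06 in these 2 comparisons, turning without DSS mouse 2, and without DSS + EA mouse 3 Foxm1 turned to -0.37 in DSS + EA against control. Values that were not called and crossed 0 after a move of less than 1 standard error are left out. Single outlying mice were not tested, and genes with few counts, such as Ccne1, Foxm1 and E2f1, could not show small differences.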
